A study of Homo sapiens with 8 samples.

Results

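The small (40S) ribosomal subunit of human cells is built from 1 ribosomal RNA and a set of ribosomal proteins, nearly all encoded by genes whose symbols begin with RPS. The genes described here are the 28 on a list of 40S protein genes, taken by symbol from both count tables, and all 28 were found in each. RPS29 is the gene that was knocked down, so it is shown apart and the counts below cover the other 27. In all, 17927 genes were listed in RNA-seq and 14019 in Ribo-seq. Other 40S protein genes were not analysed here.

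The cells were SH-SY5Y, an established human neuroblastoma line, carrying either a short hairpin RNA against RPS29 (shRPS29, labelled as RPS29 knockdown) or a control hairpin (shCONT). Both groups were measured by RNA-seq of total RNA and by Ribo-seq, the sequencing of mRNA fragments protected by ribosomes, with 2 libraries per group and assay and 8 libraries in all. The labels give neither the hairpin sequences nor whether more than 1 hairpin or clone was used, and do not say how long the knockdown lasted. They do not say whether replicates came from separate cultures, so the p-values measure the spread between these libraries, which may be technical.

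A 40S subunit has a head and a body. The mRNA runs through the neck between them, and the platform, shoulder and feet belong to the body. Many body proteins bind the ribosomal RNA early, in a large nucleolar particle called the SSU processome, while many head proteins, and proteins near the mRNA channel, are added later, some only in the cytoplasm. The RNAs of ribosomal proteins are known for a 5′ terminal oligopyrimidine (TOP) tract, a cytosine at the first base followed by an unbroken run of pyrimidines, through which their translation responds to growth signals. Loss of 1 copy of several 40S protein genes, among them RPS19, RPS24, RPS26 and RPS29, causes Diamond-Blackfan anaemia, a failure of red cell production.

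RNA-seq libraries held 19156104 and 17539104 counts in the knockdown and 18125164 and 18539460 in the controls. Ribo-seq libraries held 2630463 and 4375971 counts in the knockdown and 2899655 and 3235621 in the controls. Rank correlations across genes were between 0.985 and 0.993 for pairs of RNA-seq libraries and between 0.455 and 0.827 for Ribo-seq, where knockdown replicate 1 stood apart from the controls (0.528 and 0.455). Ribo-seq knockdown replicate 2 correlated at 0.743 and 0.692 with control replicates 1 and 2, and at 0.732 with knockdown replicate 1. The Ribo-seq libraries thus did not group cleanly by condition, which limits all footprint values below. Markers of noradrenergic neuroblastoma were present, with 8 of 8 listed. Their summed RNA level was 4654 to 4743 CPM (counts scaled to library size) in the knockdown and 4207 to 4341 in the controls. However, TH, 1 of these 8, had at most 4 counts in any library. Blood markers summed to at most 14.0 CPM in the knockdown and 7.47 in the controls with HBB not listed, epithelial markers to 4.30 and 5.69, and fibroblast markers to 304 and 249, most of the last from COL3A1. Some of these markers were called in RNA: TBX2, ISL1, CD14, CD68, COL3A1 and LUM were higher in the knockdown and CDH1 and COL1A1 lower, and their part in the results below was not tested.

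RPS29, a small zinc-binding protein of the head, lies at chr14:49570988-49598710 (GRCh38.p14, minus strand). Its RNA was at 7.53 and 6.46 CPM in the knockdown libraries, from 147 and 117 counts, against 137 and 160 CPM in the controls, from 2430 and 2872 counts. The groups did not overlap, and the log2 fold change of knockdown over control was -4.40 (SE 0.115, edgeR quasi-likelihood adjusted p = 6.32e-12). Footprints of RPS29 numbered 28 and 28 counts in the knockdown and 199 and 129 in the controls, or 11.6 and 7.02 CPM against 59.4 and 39.1 CPM. That is a log2 fold change of -2.41 (SE 0.602, edgeR adjusted p = 0.0193). The footprint call ended without control replicate 1, control replicate 2 or knockdown replicate 2 (adjusted p = 0.148, 0.0798 and 0.0848).

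The first question was how the RNAs of the other 40S proteins stood in cells short of RPS29. Of the 27, 19 fell, 0 rose and 8 were not called at an edgeR adjusted p below 0.05. Over all 14723 genes tested, 16.3% were called lower and 14.4% higher, against which the 19 of 27 is to be read. The median log2 fold change was -0.54 (from -1.19 to 0.14, with quartiles of -0.62 and -0.22), beside a median of 0.01 over all genes. At an unadjusted p below 0.05, 21 were lower and 0 higher, and DESeq2 called 20 lower and 0 higher. DESeq2 called 10.6% of all genes lower and 8.84% higher.

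In 22 of the 27, both knockdown libraries lay below both controls, and in 1, FAU, both lay above. Over all genes tested these patterns held for 32.9% and 32.3%. Together the 27 took 2.20 and 1.88% of the RNA counts in the knockdown and 2.53 and 2.62% in the controls. Knockdown replicate 2 was below knockdown replicate 1 in all 27 genes, so a part of the size of each change differs between those 2 libraries. CPM is a share of a library, so a lower CPM does not by itself show less RNA per cell. Each library also pools many cells, so less RNA in each cell and fewer cells with the RNA cannot be told apart.

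**Figure D1:**
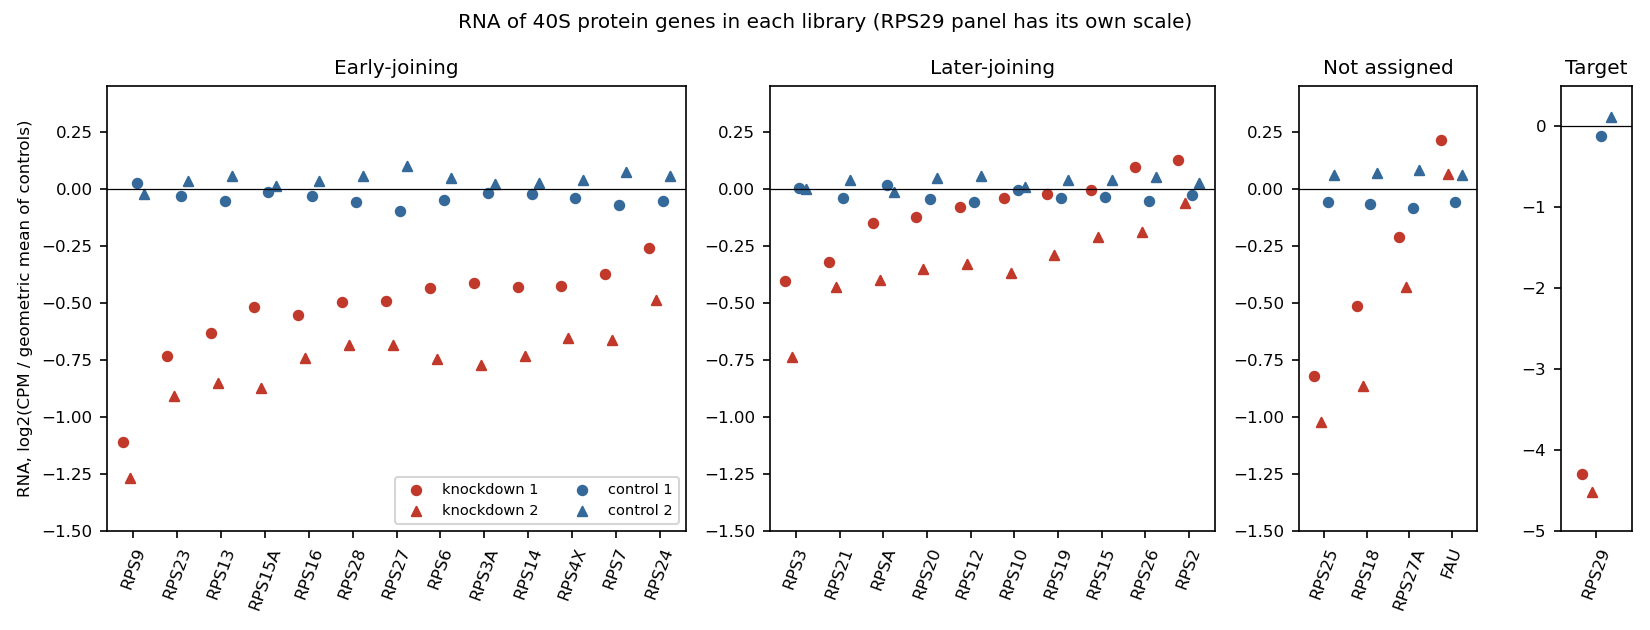
RNA of each 40S protein gene in each library, as log2 of its CPM over the geometric mean of the 2 controls (vertical axis), with genes along the horizontal axis by their order of joining in yeast. Red marks are knockdown and blue marks control libraries, circles replicate 1 and triangles replicate 2. All 13 early-joining genes have both knockdown libraries below both controls, against 6 of 10 later-joining genes and 32.9% of all genes tested. RPS29 has a panel and scale of its own.

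The start of each gene is shown next, because the TOP tract is what the RNAs of this family are best known to share. RefSeq promoter sequences (GRCh38.p14) were listed for RPS29 and 24 of the other 27. Each line gives 30 bases on the gene's own strand, 5′ to 3′: 10 before the RefSeq start and 20 from it. Capitals mark a pyrimidine run that begins with C at the first transcribed base. The 4 genes with the lowest RNA fold change that have a sequence come first, then RPS19 and FAU, which have a run but were not called, then RPS15 and RPS26, which have no run at the start and were not called, then the knockdown target.
RPS9, chr19:54200848-54200877, plus strand: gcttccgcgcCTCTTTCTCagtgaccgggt
RPS25, chr11:119018324-119018353, minus strand: gcagcgcttcCTTTTTgtccgacatcttga
RPS23, chr5:82278335-82278364, minus strand: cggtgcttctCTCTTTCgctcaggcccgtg
RPS13, chr11:17077648-17077677, minus strand: ctctcgctctCCTTTCgttgcctgatcgcc
RPS19, chr19:41860245-41860274, plus strand: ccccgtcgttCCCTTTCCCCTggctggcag
FAU, chr11:65122115-65122144, minus strand: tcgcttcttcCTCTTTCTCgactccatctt
RPS15, chr19:1438386-1438415, plus strand: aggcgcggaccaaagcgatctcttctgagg
RPS26, chr12:56041908-56041937, plus strand: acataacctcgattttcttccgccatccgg
RPS29, chr14:49598691-49598720, minus strand: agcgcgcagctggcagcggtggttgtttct

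The motif searched was a C at the RefSeq start followed by at least 4 further bases that are each C or T, on the gene's strand alone. It was found in 18 of the 24 genes (75%), against 729 of 15842 protein-coding promoters (4.60%). With the start allowed to shift by up to 10 bases it was found in 22 of 24 (91.7%), against 32.9% of all. Of the 18 with the motif at the start, 14 were called lower in RNA, beside 16.3% of all genes tested. The median over the 18 was -0.58 on the log2 scale. Of the 6 without it (RPS15, RPS27A, RPS28, RPS4X, RPS7 and RPS26), 4 were lower, and the median was -0.42. With the shift of up to 10 bases, RPS15, RPS28, RPS7 and RPS26 have the motif too, and only RPS27A and RPS4X lack it. FAU and RPS9 begin with the same run of 9 bases and stood at the highest and the lowest RNA fold change of the 27. Across the 24 genes, the length of the run and the RNA change had a Pearson r of -0.09 and a Spearman rho of 0.03, a description over genes measured in the same 4 libraries. A match describes these letters and is not evidence of a functional site.

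The head proteins were described first. Of 11 besides RPS29, 6 fell and 5 were not called, beside 16.3% of all genes called lower, and the median was -0.32 (log2). RPS25, which viral and cellular internal ribosome entry sites need, had 402 and 350 CPM in the knockdown and 682 and 741 CPM in the controls. RPS18, which forms a bridge to the large subunit, had 989 and 778 CPM in the knockdown and 1349 and 1484 CPM in the controls. RPS16, whose tail reaches the tRNA in the peptidyl site, had 755 and 662 CPM in the knockdown and 1083 and 1135 CPM in the controls. In none of these did the groups overlap. The log2 fold changes were -0.92 for RPS25 (SE 0.0830, adjusted p = 2.08e-06), -0.68 for RPS18 (SE 0.102, adjusted p = 1.70e-04) and -0.65 for RPS16 (SE 0.0824, adjusted p = 4.49e-05), from edgeR.

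RPS28, near the mRNA exit, fell by 0.59 on the log2 scale, RPS3, which lines the mRNA entry channel, by 0.56, and RPS27A, made as a fusion with ubiquitin, by 0.32. RPS3 was the one later-joining head protein called, with 1284 and 1018 CPM in the knockdown and 1702 and 1695 CPM in the controls, and its groups were well apart. RPS20, at -0.23, was just outside the threshold (edgeR adjusted p = 0.0529), and DESeq2 called it (adjusted p = 0.0320). RPS12, of the beak, was at -0.20. RPS10, which is ubiquitylated when ribosomes collide, had 613 and 489 CPM in the knockdown and 628 and 635 CPM in the controls, also a log2 fold change of -0.20. The head proteins nearest to no change were RPS19, the gene most often mutated in Diamond-Blackfan anaemia, and RPS15, needed for export of the precursor from the nucleus. RPS19 had 1277 and 1060 CPM in the knockdown and 1263 and 1335 CPM in the controls, at -0.15 (SE 0.0910, edgeR adjusted p = 0.230). RPS15 had 739 and 642 CPM in the knockdown and 723 and 762 CPM in the controls, at -0.11 (SE 0.0823, edgeR adjusted p = 0.367). In both, knockdown replicate 1 lay between the controls and replicate 2 below them.

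Among the 16 proteins of the body, 13 fell and 3 were not called, beside 16.3% of all genes called lower. The median was -0.56 on the log2 scale. RPS9, at the mRNA entry channel, had 469 and 419 CPM in the knockdown and 1027 and 994 CPM in the controls. RPS23, at the decoding centre, had 462 and 409 CPM in the knockdown and 751 and 784 CPM in the controls. RPS13, which contacts the large subunit, had 306 and 263 CPM in the knockdown and 457 and 493 CPM in the controls. Again the groups did not overlap. The log2 fold changes were -1.19 for RPS9 (SE 0.0794, adjusted p = 1.68e-07), -0.82 for RPS23 (SE 0.0794, adjusted p = 4.23e-06) and -0.74 for RPS13 (SE 0.0826, adjusted p = 1.43e-05), from edgeR. RPS9 RNA in the knockdown was thus at 0.439 of its control level, the largest decrease of the 27.

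Below these, a group of early-joining body proteins lay close together. RPS15A was at -0.69, RPS27 at -0.59, RPS6, the substrate of S6 kinase, at -0.58, RPS3A at -0.58, RPS14, the gene of the 5q deletion syndrome, at -0.57, RPS4X at -0.54 and RPS7, which can bind MDM2, at -0.51. All were called. RPS21 (-0.38), RPS24 (-0.37) and RPSA (-0.27), also known as the laminin receptor, fell by less. RPSA had 1605 and 1348 CPM in the knockdown and 1798 and 1763 CPM in the controls (edgeR adjusted p = 0.0328), and its call ended with the replicate block and without either control (adjusted p = 0.120, 0.319 and 0.249). Without control replicate 2, RPS21, RPS24 and RPS27A were not called either (adjusted p = 0.0689, 0.121 and 0.253); in these fits the 1 control left is assumed to vary like the knockdown libraries.

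The 3 body proteins not called were RPS26, RPS2 and FAU. RPS26, which sits at the mRNA exit, had 285 and 233 CPM in the knockdown and 257 and 276 CPM in the controls, a log2 fold change of -0.04 (edgeR adjusted p = 0.769). RPS2, at the mRNA entry, had 3430 and 3008 CPM in the knockdown and 3087 and 3199 CPM in the controls, at 0.03 (SE 0.0879, edgeR adjusted p = 0.808). FAU, made as a fusion of a ubiquitin-like protein with a small protein of the body, had 398 and 359 CPM in the knockdown and 329 and 357 CPM in the controls, at 0.14 (SE 0.0770, edgeR adjusted p = 0.187). For RPS26 and RPS2 the knockdown libraries lay on both sides of the controls, and for FAU both lay above, knockdown replicate 2 by little. RefSeq lists 74 pseudogenes for RPSA, 59 for RPS26, 55 for RPS2 and 54 for RPS3A, and reads of near-identical copies can be split. The RNA-seq counts listed under pseudogenes came to 7.30% of those of RPS2, 3.37% of those of RPS28 and 1.05% of those of RPS26, and their part in these values was not tested. Without knockdown replicate 2, the log2 fold change was 0.13 for RPS2 and 0.22 for FAU, each past the threshold in a fit where the 1 knockdown library left is assumed to vary like the 2 controls (the SE of FAU was 0.0558 there, against 0.0770 with all libraries).

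**Figure D2:**
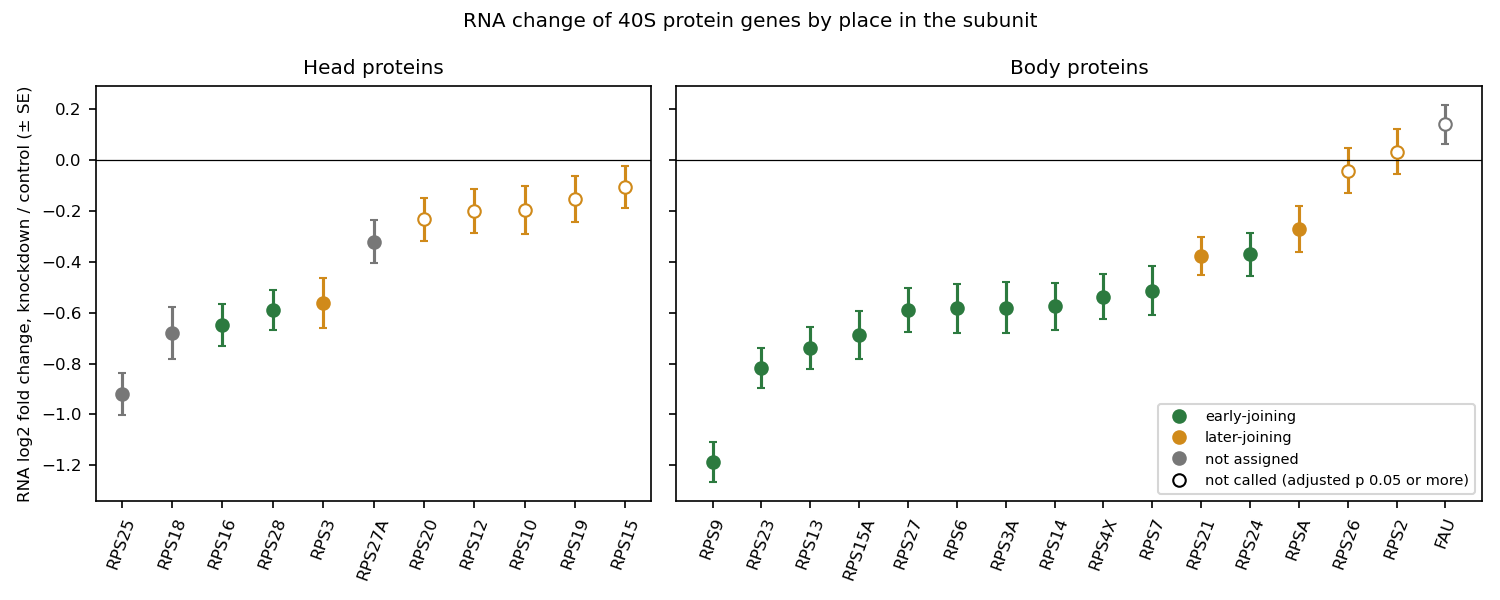
RNA log2 fold change of knockdown over control for the 27 genes besides RPS29 (vertical axis, bars are 1 SE from the edgeR fit, n = 2 libraries per group), with head proteins in the left panel and body proteins in the right. Filled marks passed the adjusted p threshold of 0.05 and open marks did not. In the head 5 of the 6 filled marks lie at or below -0.56 and RPS27A lies at -0.32, and 5 of the 6 later-joining head proteins are open.

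The RNA medians also differed when the genes were grouped by order of joining in assembly, as known from yeast. This grouping leaves out 4 genes that the head and body medians include, so distances between medians cannot be compared across the groupings. Of the 13 proteins present in the yeast SSU processome, all 13 fell, the log2 fold changes having a median of -0.59 and a range of -1.19 to -0.37. Of the 10 that join later, 3 fell (RPS3, RPS21 and RPSA) and 7 were not called, with a median of -0.20 and a range of -0.56 to 0.03. Both knockdown libraries were below both controls in 13 of 13 early and 6 of 10 later genes, against 32.9% of all genes tested. The ranges overlap, since RPS3 (-0.56) and RPS21 (-0.38) lie within that of the early genes, and the difference between the classes was not tested. The classes were chosen with earlier results of these data known, so the split is a description only. Of the 4 without an assigned order, RPS25, RPS18 and RPS27A fell and FAU was not called. Over all genes tested, 16.3% were called lower.

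Within each place in the subunit the medians differed in the same direction. In the head, both early proteins (RPS16 and RPS28) fell, with a median of -0.62, against 1 of 6 later ones (RPS3), with a median of -0.20. In the body, all 11 early proteins fell, with a median of -0.58, against 2 of 4 later ones (RPS21 and RPSA), with a median of -0.16. Library by library, the median log2 ratio to the control mean was -0.49 and -0.74 in the knockdown and -0.04 and 0.04 in the controls for the early genes. For the later genes it was -0.06 and -0.34 in the knockdown and -0.04 and 0.04 in the controls. The 2 knockdown libraries thus differed in how low both classes stood, while the gap between the classes was -0.43 and -0.40 in them. The number of later genes called lower was 9 without knockdown replicate 1 and 1 without control replicate 2, while all the early ones but RPS24 were called in each fit with a library left out. Such a fit takes its spread from the group that keeps 2 libraries, which were closer together among the controls, so these counts also reflect which group sets the spread. The later median, which does not depend on it, stood at -0.34 with knockdown replicate 1 left out and at -0.06 with knockdown replicate 2 left out.

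The other protein genes of the ribosome and the factors that assemble the small subunit give the setting for these values. Of 47 large-subunit protein genes, 40 fell and 0 rose (at an unadjusted p below 0.05, 40 lower and 0 higher; DESeq2, 37 and 0), and the median was -0.50 on the log2 scale, beside -0.54 for the small subunit. The later-joining 40S genes, at -0.20, were nearer to no change than the large-subunit median. Of 41 factors of 40S assembly, 21 rose and 0 fell (unadjusted, 27 higher and 2 lower; DESeq2, 18 and 0), with a median of 0.24. Of all genes tested, edgeR called 16.3% lower and 14.4% higher, and DESeq2 10.6% and 8.84%. RRP9, a protein of the U3 small nucleolar ribonucleoprotein, was at 1.09 (SE 0.0935, edgeR adjusted p = 1.33e-06). RRP12, which takes part in export of the precursor, was at 0.66 (SE 0.0689, edgeR adjusted p = 7.73e-06), and UTP4, of the processome, at 0.76 (SE 0.0797, edgeR adjusted p = 8.75e-06). RPS27L, the close paralog of RPS27 and a known p53 target, moved opposite to RPS27. It had 85.7 and 74.8 CPM in the knockdown and 46.2 and 51.6 CPM in the controls, a log2 fold change of 0.71 (SE 0.0912, edgeR adjusted p = 4.55e-05). All these values are of RNA. Footprints of the 38 assembly factors tested did not rise with it: their median was -0.43, with 27 negative and 0 called. Their footprint change beyond the RNA had a median of -0.65, with 33 of 38 negative and 1 called lower, beside 1.35% of all genes. Footprints of RPS27L were at -0.74 (edgeR adjusted p = 0.650), from 17 and 23 counts in the knockdown and 18 and 53 in the controls.

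The second question was how ribosome footprints on these RNAs differed. Of the 27 genes, 26 passed the count filter. Neither edgeR nor DESeq2 called any of them lower or higher, and at an unadjusted p below 0.05 2 were lower in edgeR (RPS20 and RPS15A) and 0 higher. Over all 11853 genes tested, 0.607% were called lower and 7.96% higher. The median log2 fold change of the 26 was -0.51, beside 0.04 over all genes, and 21 were negative. In 15 both knockdown libraries lay below both controls and in 1, RPS7, both lay above, while over all genes tested this was so for 26.7% and 29.0%. The median SE was 0.597 on the log2 scale, larger than the median RNA change, so footprint changes of the size seen in RNA were not detectable at this depth and spread. Among the 44 large-subunit protein genes tested, the footprint median was -0.47, close to that of the 26. Of these 44, 34 were negative, 1 was called lower and 0 higher.

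RPS20 had footprints of 13.3 and 38.4 CPM in the knockdown and 46.8 and 87.0 CPM in the controls, a log2 fold change of -1.36 (edgeR adjusted p = 0.192). RPS15A, of the body, had 7.07 and 12.0 CPM in the knockdown and 22.4 and 26.7 CPM in the controls, at -1.34 (edgeR adjusted p = 0.204). RPS25 had 27.4 and 89.3 CPM in the knockdown and 132 and 146 CPM in the controls, at -1.24 (edgeR adjusted p = 0.234). In all 3 the knockdown libraries lay below the controls, but the 2 knockdown libraries of RPS20 and RPS25 were far apart. The sizes rest on single libraries: RPS25 was at -0.63 without knockdown replicate 1 (edgeR adjusted p = 0.607) and -2.41 without knockdown replicate 2 (0.0464), and RPS20 at -0.79 (0.546) and -2.40 (0.0750). With the replicate number as a block, RPS20 (-1.48, edgeR adjusted p = 0.0318) and RPS25 (-1.46, edgeR adjusted p = 0.0331) were called lower, in a fit that called 397 genes lower over the whole table, against 72 without the block.

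Other footprint values without overlap included several early body proteins. RPS24 had 10.4 and 13.0 CPM in the knockdown and 26.3 and 23.7 CPM in the controls. RPS6 had 472 and 702 CPM in the knockdown and 1208 and 1084 CPM in the controls. RPS9, which had the largest RNA decrease, had 19.96 and 26.8 CPM in the knockdown and 36.1 and 45.2 CPM in the controls. Their log2 fold changes were -1.08, -0.96 and -0.79, and the adjusted p from edgeR lay between 0.291 and 0.426, so none was called. By order of joining, the footprint medians were -0.56 over 13 early genes, 9 of them below both controls, and -0.02 over 9 later genes, 2 of them below. The share below both controls over all genes tested was 26.7%. Head and body medians were -0.51 and -0.50. Of the later genes tested, RPSA, RPS2, RPS3, RPS12, RPS19 and RPS20 hold a small RNA gene in their span. Of the early genes, only RPS3A and RPS13 do. The split by order of joining and the split by small RNA genes, given below, thus largely overlap and cannot be told apart here.

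The remaining footprint values were nearer to each other or noisier. RPS14 had 71.9 and 139 CPM in the knockdown and 174 and 223 CPM in the controls, and RPS23 had 302 and 444 CPM in the knockdown and 447 and 558 CPM in the controls. Neither overlapped, at -0.91 and -0.43. RPS3 had 1694 and 1539 CPM in the knockdown and 1065 and 4229 CPM in the controls, so its fold change of -0.71 comes from control replicate 2, without which it was 0.56. RPS4X, RPS27A, RPS27, RPS12 and RPS18 lay between -0.67 and -0.50, and RPS28, RPS3A, RPS16 and RPS13 between -0.38 and -0.17. RPS21, RPS19, RPS2 and RPS15 lay between -0.06 and 0.09, and RPSA was at 0.26. The edgeR adjusted p of these 17 genes was at least 0.369.

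**Figure D3:**
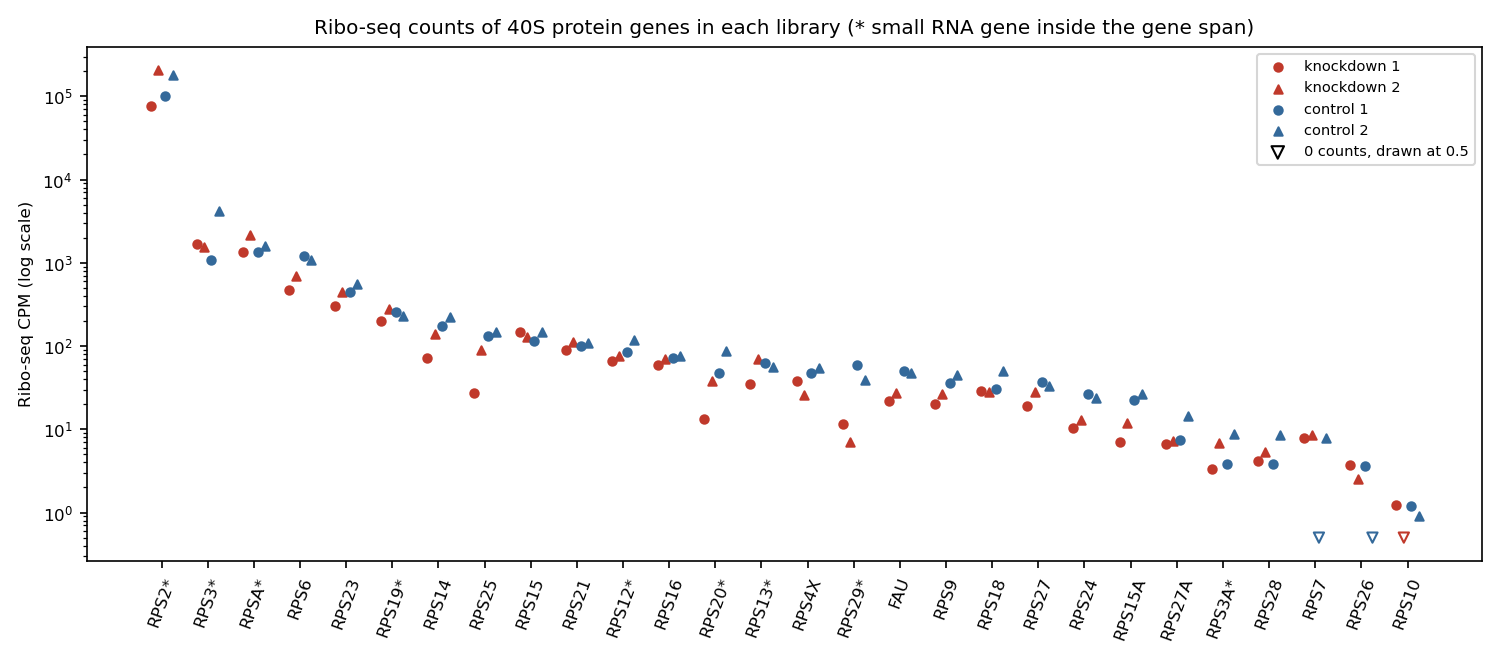
Ribo-seq level of each 40S protein gene in each library (vertical axis, CPM on a log scale), with genes in order of their mean in the controls. Red marks are knockdown and blue marks control libraries, an open triangle is a count of 0 drawn at 0.5, and an asterisk marks genes with a small RNA gene inside their span. CPM is not divided by gene length, so heights compare libraries within a gene. RPS2 lies far above all others, and RPS7, RPS26 and RPS10 each have a library with 0 counts.

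A few genes dominate or fall out of the footprint data. RPS2 alone took 6.999 and 18.6% of the Ribo-seq counts in the knockdown and 11.6 and 18.3% in the controls, although it held between 0.302 and 0.349% of each RNA-seq library. Its ratio of footprint to RNA CPM was 43.7 in the knockdown and 44.6 in the controls. The next ratios in the controls were 1.56 for RPS3 and 0.884 for RPS6, and the median over the 27 was 0.0718. RPS2 (chr16:1962058-1964826) holds the small nucleolar RNA genes SNORA10 and SNORA64 in its span. Small nucleolar RNAs guide the modification of other RNAs, and reads from them would be counted for the host gene if counting ran over introns, which the sources used here do not give; their part in the count was not tested.

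RefSeq places a small RNA gene inside 8 of the 27 genes. RPSA holds SNORA6 and SNORA62, RPS3 SNORD15A and SNORD15B, RPS3A SNORD73A and SNORD73B, RPS12 SNORD100, SNORD101 and SNORA33, RPS13 SNORD14A and SNORD14B, RPS19 MIR6797 and RPS20 SNORD54. In these 8 the median footprint to RNA ratio in the controls was 0.195, against 0.0574 in the other 19. Their footprint log2 fold changes had a median of -0.24, with 2 of 8 below both controls. The 18 tested genes without a small RNA gene had a median of -0.60, with 13 below both controls. The share below both controls over all genes tested was 26.7%, near that of the 8 hosts. In RNA the medians also differed, at -0.25 over the 8 hosts and -0.57 over the other 19. Beyond the RNA, the median footprint changes were 0.05 for the 8 hosts and 0.11 for the 18 others tested. The part of small RNA reads in these differences was not tested. Leaving the 8 hosts out, the 40S protein genes took 0.123 and 0.170% of Ribo-seq counts in the knockdown and 0.291 and 0.270% in the controls, and 1.16 and 0.991% of RNA-seq counts in the knockdown and 1.45 and 1.52% in the controls. These are shares of unscaled counts. In scaled CPM the Ribo-seq sums were 1341 and 1870 in the knockdown and 2515 and 2654 in the controls. RPS6 was the largest part, at 472 and 702 CPM in the knockdown and 1208 and 1084 CPM in the controls. RPS29 itself spans RN7SL1, the RNA of the signal recognition particle, which had 422 and 260 RNA-seq counts in the knockdown and 186 and 138 in the controls and is not listed in the Ribo-seq table.

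At the other end, RPS10 had 3 and 0 footprint counts in the knockdown and 4 and 3 in the controls, although its RNA counts were 11961 and 8859 in the knockdown and 11141 and 11384 in the controls. A count of 0 in knockdown replicate 2 allows up to 0.752 CPM, counting error alone considered. The annotated readthrough gene RPS10-NUDT3, which overlaps it, had 102 and 89 footprint counts in the knockdown and 89 and 123 in the controls, but only 90 and 77 RNA-seq counts in the knockdown and 144 and 61 in the controls. RPS7 had 19 and 34 footprint counts in the knockdown and 0 and 26 in the controls, and RPS26 had 9 and 10 in the knockdown and 12 and 0 in the controls. The fitted fold changes of RPS7 (1.06) and RPS26 (0.78) therefore rest on single control libraries with 0 counts. Among the protein genes that RefSeq places over a member, CENATAC overlaps RPS25 and CLHC1 overlaps RPS27A. They had at most 163 and 102 RNA-seq counts in any library, and at most 14 and 48 in Ribo-seq. RefSeq lists pseudogenes for each of the 27, but the Ribo-seq table lists none of them.

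The third question was whether footprints differed beyond the RNA, the change in translational efficiency. The interaction of assay and condition called none of the 26 genes in edgeR, with 1 below an unadjusted p of 0.05. Over all 10648 genes tested, 1.35% were called lower and 2.90% higher. The median log2 change of the 26 was 0.08, from -1.12 to 1.58, beside -0.06 over all genes, and 12 were negative. The gene with the unadjusted p below 0.05 was FAU, whose RNA was the highest of the 27 relative to control while its footprints were at 22.0 and 27.3 CPM in the knockdown and 50.7 and 47.3 CPM in the controls. Its translational efficiency change was -1.12 (SE 0.326, edgeR adjusted p = 0.0790). That SE is below the SE of its footprint change alone (0.538), so it can be too small. DESeq2 called FAU (-1.14, adjusted p = 0.0106), and limma-voom called 0 of the 26. That DESeq2 fit called more genes in general, 6.35% of all genes lower and 7.81% higher. The ratio of footprint to RNA CPM of FAU was 0.0652 in the knockdown and 0.143 in the controls.

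RPS9 and RPS23, low in RNA, were at 0.40 and 0.39 in translational efficiency, and RPS24 and RPS15A at -0.71 and -0.64, none of them called (edgeR adjusted p between 0.247 and 0.570). RPS29 had a ratio of 1.33 in the knockdown and 0.332 in the controls, a change of 1.97 (SE 0.468, edgeR adjusted p = 0.0553). It missed the threshold and was called by DESeq2 (1.95, adjusted p = 0.00726). The edgeR SE was again below that of the footprint change alone (0.602). RPS29 spans 27723 bases and holds RN7SL1, and the part of reads from introns or from RN7SL1 in its footprint counts was not tested. Across the 26 genes the RNA and footprint log2 fold changes had a Pearson r of 0.30 and a Spearman rho of 0.30, a description over genes of the same libraries.

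**Figure D4:**
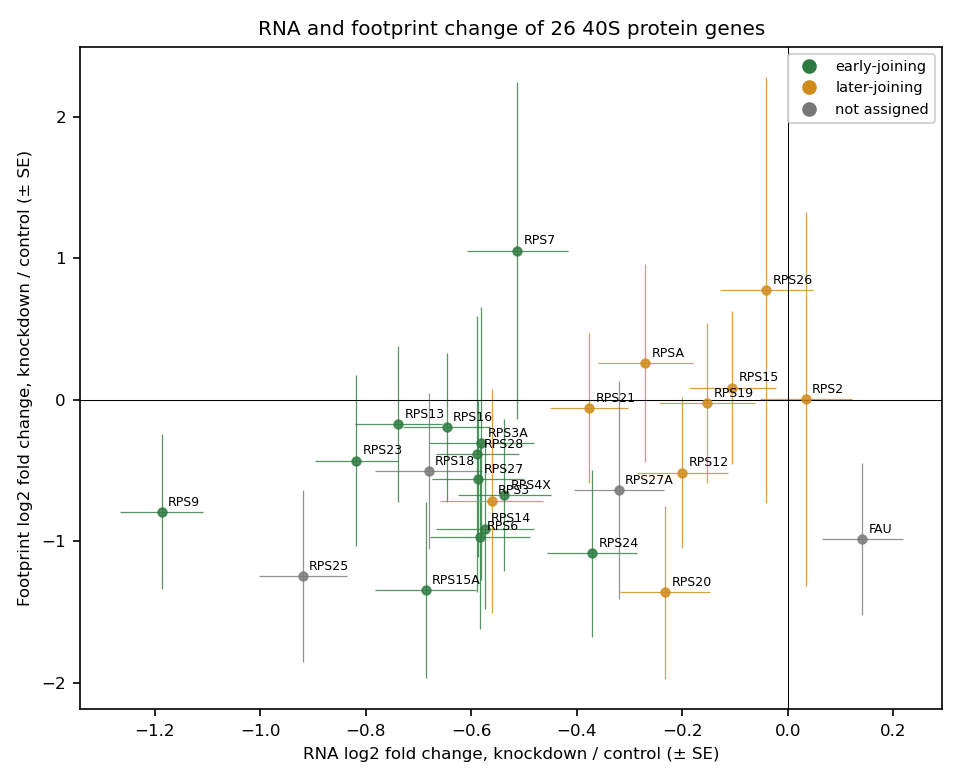
Log2 fold change of knockdown over control in RNA (horizontal axis) and in footprints (vertical axis) for the 26 genes tested in both, each with bars of 1 SE. Colours give the order of joining in yeast. The footprint bars are several times longer than the RNA bars, 21 of 26 points lie below 0 in footprints, and FAU stands at 0.14 in RNA and -0.99 in footprints.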

How the data were processed

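The authors sequenced total RNA and ribosome-protected fragments of SH-SY5Y cells and deposited raw counts by gene symbol, with 1 table for each assay. The submitters' processing notes name build hg38 and the tools STAR, Bowtie2, Salmon, featureCounts and Trim Galore. The sources used here do not give their versions and roles, the annotation, or whether Ribo-seq counting was restricted to coding exons. Per the labels' protocols, RNA-seq libraries came from a stranded total RNA kit, and footprints were made with RNase I from lysates with cycloheximide, depleted of rRNA and built with a small RNA kit. No sample column was left unmatched (0).

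Each assay was fitted on its own in edgeR 4.0.16 (R 4.3.3) by quasi-likelihood F tests, after filterByExpr and TMM scaling, with p-values adjusted by Benjamini-Hochberg over the whole assay and calls made below 0.05. The SE was obtained from the log2 fold change and the square root of its F value. CPM values use TMM-scaled library sizes, and both libraries of a group are printed in place of an SD. Translational efficiency was tested as the interaction between assay and condition, with the 8 libraries in 1 model. Since that fit shares 1 dispersion between the assays and Ribo-seq varied more than RNA-seq, its SE can be too small for footprints. The scripts were tested on simulated data. Gene spans, small RNA genes, pseudogenes and promoters came from RefSeq tables of GRCh38.p14, which matched 17691 of 17927 and 13954 of 14019 symbols.

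All 28 members are named, with values in every library for RPS29 and for the 3 lowest and 2 highest RNA changes in head and body. Values per library of RPS3, RPS10, RPS26, RPSA, RPS27L, of the overlapping genes and of the footprints were chosen after they were seen. The members, the position and assembly classes and the other lists were chosen with earlier results of these data known. Classes are described by counts and medians, with no test between them. The alternatives were RLE size factors, DESeq2 1.42.0, limma-voom (limma 3.58.1, translational efficiency), no count filter, a mean of at least 50 counts, a test against a 1.5-fold change (RNA), genes with at least 10 RNA CPM and no small RNA gene (footprints and translational efficiency), the replicate number as a block, and each library left out in turn, where the lone library of a group is assumed to vary like the other group. Floors of 3 counts cover counting error only, since reads carry no molecular identifiers.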

Additional observations from a re-analysis of the deposited data

How the results depend on the processing

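RLE size factors, DESeq2, no count filter, a mean of at least 50 counts and the replicate block kept the RNA counts of all lists within 1.5 times. Against a 1.5-fold change, 2 of the 27 genes were lower (RPS9 and RPS25), with 1 early, 0 later, 1 head and 1 body gene. In that test 2 large-subunit genes were lower and 1 assembly factor higher, beside 1.13% of all genes lower and 0.469% higher. With each library left out in turn, the 40S genes higher numbered 0 to 2, the later ones lower 1 to 9 and higher 0 to 1, the head ones lower 5 to 11 and the body ones higher 0 to 2. The early median lay between -0.75 and -0.49 and the later median between -0.34 and -0.06. Assembly factors higher numbered 11 to 27 and lower 0 to 1, and large-subunit genes higher 0 to 1. RPS2 RNA ranged from -0.067 to 0.13 and RPS26 RNA from -0.20 to 0.10. Without knockdown replicate 1, RPS10, RPS12, RPS15, RPS19, RPS20 and RPS26 were called lower too.

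With the replicate block, 2 genes were lower in footprints and RPSA RNA lost its call. The block changed no other call of the 27 genes. The libraries share only a number in the labels, and whether it pairs them cannot be settled from 2 pairs: deviations of same-numbered libraries correlated at -0.04 in RNA-seq and 0.11 in Ribo-seq. Over all genes the block took footprint calls to 397 lower and 1402 higher, against 72 and 944. With each library left out, 0 to 1 were lower in footprints, the footprint median lay between -0.80 and -0.25, and RPS29 footprints between -2.79 and -2.12. Single-gene footprint directions turned within these ranges: RPS15 -0.12 to 0.24, RPS19 -0.36 to 0.21, RPS3A -0.99 to 0.38, RPS13 -0.86 to 0.26, RPS21 -0.29 to 0.090, RPSA -0.21 to 0.58, RPS2 -0.94 to 0.56, RPS3 -1.42 to 0.56, RPS28 -0.87 to 0.26 and RPS26 -0.25 to 6.32. RPS2 footprints were at -0.020 with DESeq2 and -0.10 with the block. RPS19 (0.16) and RPS21 (0.13) turned with a mean of at least 50 counts, and RPS16 (0.071) and RPS21 (0.21) among genes with at least 10 RNA CPM and no small RNA gene. In translational efficiency DESeq2 called 1 gene lower (FAU), and with a library left out 0 to 5 were lower and 0 to 1 higher. The 5 came without Ribo-seq knockdown replicate 2, where 19.6% of all genes tested were lower. RPS29 was at 1.95 (called) with DESeq2, 2.17 (called) with a mean of at least 50 counts, and 1.61 to 2.26 with a library left out. The causes were not tested. Groups of 2 libraries and Ribo-seq depth limit these results: a footprint difference as small as the RNA ones could not be seen, and a gene not called is not shown to be unchanged.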
